A study of Homo sapiens with 6 samples.

Results

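GAPDH CLIP peaks on the transcripts of 8 enzymes of glycolysis and the pentose phosphate pathway were collected from 3 lists. The enzymes were GPI, ALDOA, GAPDH, PGK1, ENO3, PKM, LDHA and TKT, and every entry that carried the symbol of any of them was taken, whatever its position. They accounted for 18 of the 1776 entries, each a peak paired with a gene, and for 8 of the 947 genes. CLIP-seq recovers RNA that ultraviolet light has crosslinked to a protein, here glyceraldehyde-3-phosphate dehydrogenase (GAPDH), which was precipitated with a polyclonal antibody. The cells were MOLM-13, a line grown from human acute myeloid leukaemia, kept in medium with normal glucose, with low glucose, or with galactose in the place of glucose. Each condition had 2 samples, 6 in all, which the authors had joined into 1 list per condition, and all groups were the same line without any knockdown. The lists give positions, a gene identifier and a symbol, with no strand, read number or score, so the depth is unknown, replicate spread cannot be given and no difference between media was tested. The lists also hold no RNA level, so contact with GAPDH and abundance of an mRNA cannot be told apart. The galactose list had 449 entries, that of low glucose 623 and that of normal glucose 704.

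Glycolysis splits glucose into pyruvate in the cytosol. GPI turns glucose 6-phosphate into fructose 6-phosphate, ALDOA cleaves the doubly phosphorylated fructose, GAPDH oxidises glyceraldehyde 3-phosphate while reducing NAD+, and PGK1 makes ATP from its product. Enolase, of which ENO3 is the form best known from muscle, makes phosphoenolpyruvate, PKM (pyruvate kinase) turns this into pyruvate with a further ATP, and LDHA reduces pyruvate to lactate and so restores NAD+. TKT (transketolase) belongs to the non-oxidative branch of the pentose phosphate pathway and links the sugars of that pathway to those of glycolysis. GAPDH is also known as an RNA-binding protein without a classical RNA-binding domain, and its NAD+ pocket has been linked to RNA contact.

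Peaks annotated to these genes were most numerous in normal glucose. There were 12 peaks in 7 of the 8 genes in normal glucose, 5 peaks in 4 genes in low glucose and 1 peak, on TKT, in galactose. With only peaks whose middle lay in an exon, 6 genes had a peak in normal glucose, 3 in low glucose and 1 in galactose. Over the 560 protein coding genes with a peak in any list, 49.3% had a peak in normal glucose, 55.2% in low glucose and 39.3% in galactose. TKT had a peak in every list, GAPDH and ALDOA in both glucose lists, GPI, PGK1, PKM and LDHA in normal glucose, and ENO3 in low glucose. No interval on single genes can be given from joined lists, and a gene without a peak in a list may have carried reads below the threshold of the peak caller.

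A lone crosslink site had been extended by the authors by 50 nt on both sides, and such single-site peaks are described here by their middle, taken as the called site. Of the 9 single-site peaks in normal glucose, 8 are given as the RNA-sense sequence from 10 nt before to 10 nt after the middle (hg38). The capital marks the base just before the middle, because the lists differed in it.
GPI, exon 15: cttggcccaGacagaggccct
ALDOA, exon 4: attggcaccGagaacaccgag
ALDOA, exon 6: ttctggcccGttatgccagta
GAPDH, exon 9: aaggagtaaGacccctggacc
PGK1, exon 3: gagccagttGctgtagaactc
PKM, exon 8: tatcctctgGaggctgtgcgc
LDHA, exon 3: tgatgtcatCgaagacaaatt
TKT, mRNA start: cccgcgcccGgcctcggcagc

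A G stood before the middle in 8 of the 9 peaks, and LDHA had a C. Over all single-site peaks of protein coding genes in normal glucose whose genes lie on a single strand, 111 of 178 had it, or 62.4% (95% exact Clopper-Pearson interval 54.8 to 69.5, for counting error only). GAPDH is left out of that set because an antisense gene covers its peak, and the enzymes then gave 7 of 8, so their share lay above the background value with an interval of 47.3 to 99.7% that holds it. In low glucose 39 of 154 such coding peaks had a G there (25.3%, interval 18.7 to 33), and in galactose 28 of 123 (22.8%, interval 15.7 to 31.2). The enzymes' only single-site peak outside normal glucose, that of TKT in low glucose, had an A. G made up 29.2% of all bases of these coding peaks in normal glucose, 30.4% in low glucose and 31.4% in galactose, so its share among all bases differed little between the lists. The files do not state whether starts count from 0 or 1. They were read from 1 because in normal glucose the G of coding peaks then stood just before the middle for genes of both strands, in 48 of 90 plus-strand and 63 of 88 minus-strand peaks, so the reading was set on the same base and the 62.4% is a description. Read from 0, with the middle at the later of the central bases, 3 in place of 8 of the enzymes' single-site peaks had a G before it. RNase T1, with which the crosslinked RNA was trimmed, cuts after G, and its part in these values was not tested.

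**Figure D1:**
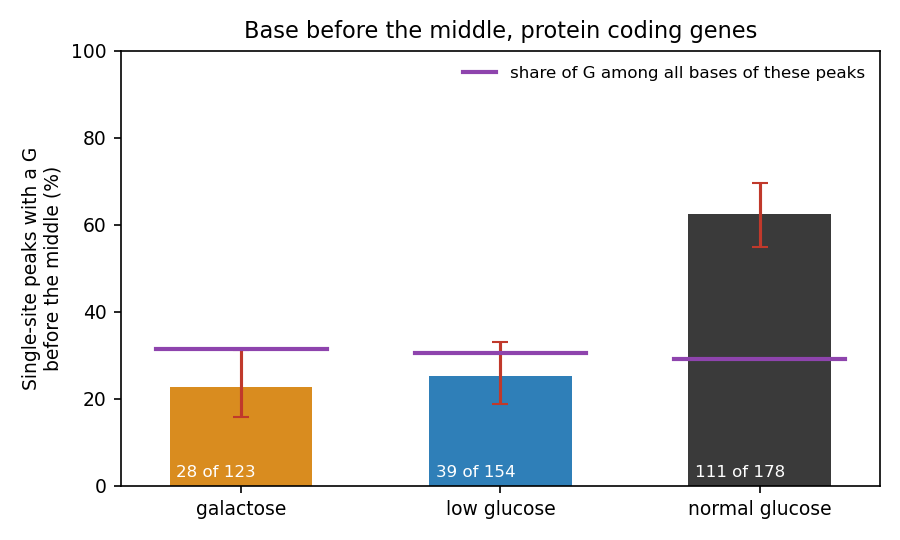
The bars give the share of single-site peaks of protein coding genes with a G just before the middle (y axis, percent) in each list (x axis), with exact 95% intervals in red and the counts inside the bars, for starts read from 1. Purple lines give the share of G among all bases of the same peaks, and only the normal glucose bar, at 62.4%, stands above its line.

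The middles of the enzymes' peaks lay mostly in coding sequence. This held for 10 of 12 peaks in normal glucose, beside 111 of the 356 entries of protein coding genes in that list (31.2%), and for 3 of 5 in low glucose, beside 113 of 375 (30.1%). In the totals over coding genes, a peak annotated to several such genes counts once for each. The enzymes' own counts place each peak by the enzyme alone. In the MANE Select transcript of each gene, the curated reference mRNA, 13 of the 18 middles fell in coding sequence, 2 in the 5'UTR, 1 in the 3'UTR and 2 outside the mRNA. The 2 outside were the ENO3 peak and the normal glucose peak of TKT. Among all coding genes, 50.6% of entries in normal glucose and 44.3% in low glucose fell outside the exons of coding transcripts. Of the 18 peaks, 12 reached into an intron and 14 held some coding bases. Lone sites had been extended along the genome, so intron bases at the edge of a single-site peak were not themselves called as sites. The wider peaks came from merged sites whose positions are not given. Whether their intron bases held called sites cannot be told.

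**Figure D2:**
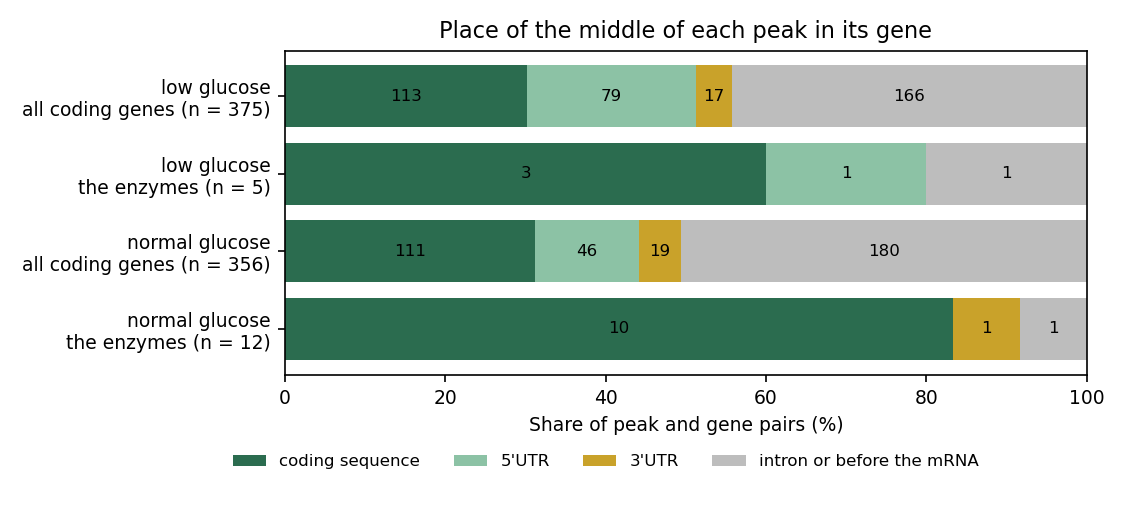
Each bar gives the share of entries (x axis, percent) by the place of the middle of the peak, with counts printed inside, for all protein coding genes and for the enzymes in the 2 glucose lists. Coding sequence, in dark green, takes 10 of 12 enzyme peaks in normal glucose and 111 of 356 entries over all coding genes.

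**Figure D3:**
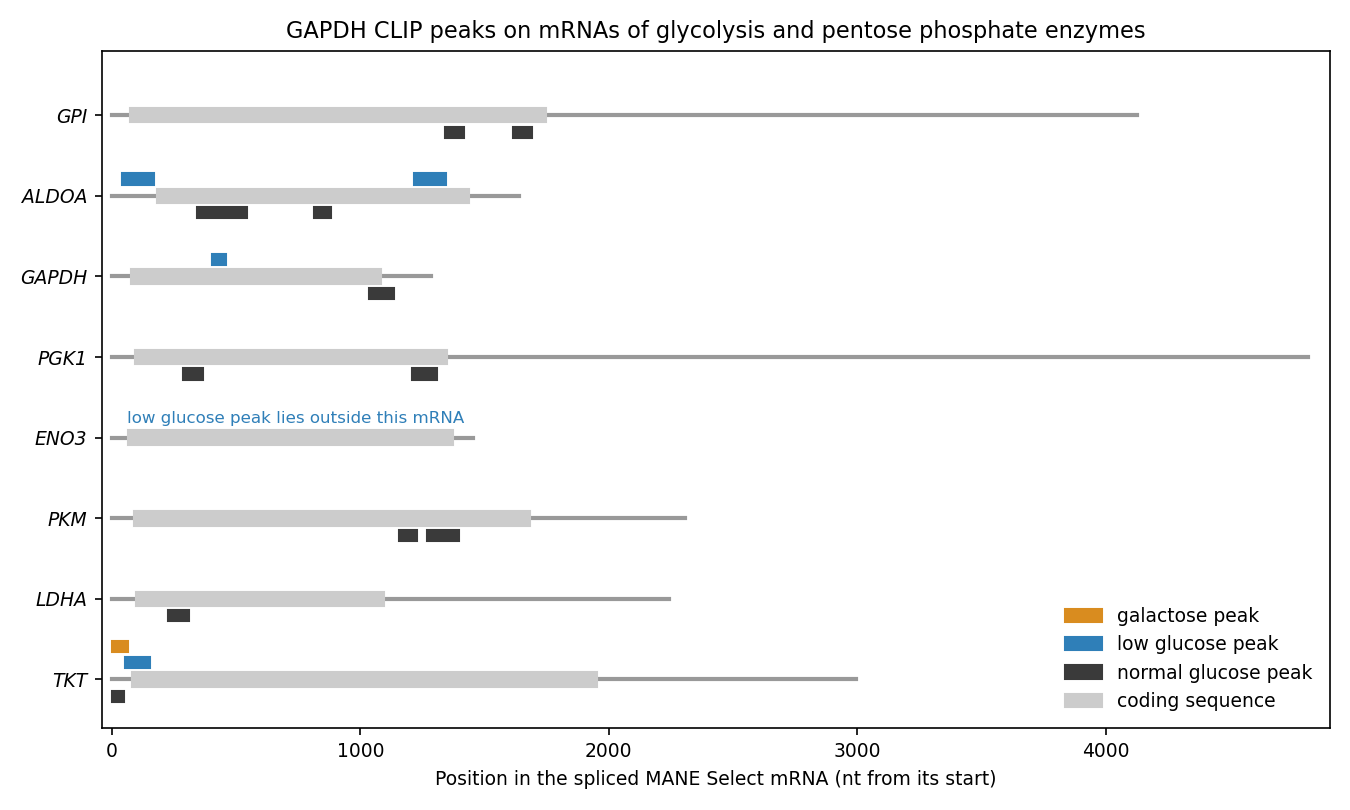
The x axis gives the position in the spliced MANE Select mRNA of each enzyme in nt, with the coding sequence as a wide grey band and the exon part of each peak as a bar, orange for galactose and blue for low glucose above the mRNA, dark for normal glucose below it. The peaks of GPI, PGK1, PKM and LDHA are all dark and lie on the coding band, those of TKT gather at its 5' end, and the ENO3 peak lies outside the mRNA.

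GPI had 2 peaks in normal glucose, both late in its coding sequence. They lay on chr19:34399184-34399284 in exon 15 of 18, with the middle in codon 433 of 558, and in exon 18, with the middle in codon 524 (hg38, plus strand). Both crossed the start of their exon. Both were also annotated to ENSG00000266953, a coding gene on the same strand, in which they fell in an intron.

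ALDOA, the aldolase of most tissues, had the most peaks of the 8 enzymes, and none of its low glucose peaks met a normal glucose peak. In low glucose the peak chr16:30065801-30065974, 174 nt wide, had its middle in the 5'UTR, 54 nt before the start codon, and chr16:30069903-30070037, 135 nt wide, had it in exon 9 of 10, at codon 368 of 418. In normal glucose the middles fell in exon 3 at codon 71 (chr16:30067253-30067357), in exon 4 at codon 104 (chr16:30067436-30067536) and in exon 6 at codon 227 (chr16:30068907-30069007), all on the plus strand of hg38. The low glucose peaks thus lay on either side of the normal glucose peaks along the mRNA. The nearest pair from different media was 895 nt apart in the genome, and the smallest distance between middles in the mRNA was 266 nt. All 5 were also annotated to ENSG00000285043, a longer coding gene on the same strand in which 4 of them fell in the 3'UTR and that at the 5' end in an intron. The exon 4 peak and that of exon 9 are printed for the contrast between the media (capitals mark exon bases). 
ALDOA, exon 4, normal glucose: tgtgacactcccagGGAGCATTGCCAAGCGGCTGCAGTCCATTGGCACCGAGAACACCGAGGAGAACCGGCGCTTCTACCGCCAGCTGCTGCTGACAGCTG
ALDOA, exon 9, low glucose: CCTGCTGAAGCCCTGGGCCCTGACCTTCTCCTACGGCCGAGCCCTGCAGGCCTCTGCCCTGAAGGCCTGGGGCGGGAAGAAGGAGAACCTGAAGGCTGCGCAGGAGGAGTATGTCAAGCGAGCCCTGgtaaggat

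GAPDH itself had a peak in each glucose list and none in galactose. In low glucose chr12:6537054-6537155 (plus strand), 102 nt wide, crossed the start of exon 6 of 9. Its middle lay 3 nt past the first base of that exon, in codon 111 of 335, with 47 bases of the peak in the intron before it. In normal glucose chr12:6538122-6538222, a single-site peak, lay over the stop codon in exon 9, with its middle 2 nt past the last base of the stop codon, 49 coding bases and 52 bases of 3'UTR. No base of either peak lay in the 5'UTR. The peaks were 966 nt apart in the genome, and their middles 679 nt apart in the mRNA of 1285 nt. The normal glucose peak was also annotated to ENSG00000269968, a lncRNA on the opposite strand, and with no strand in the lists these RNAs cannot be told apart there. Of its 30-base stretches 66.7% occur more than once in hg38, with a median of 4 copies, and of those of the low glucose peak 37.0%. The low glucose peak is printed whole because its middle lies by a splice acceptor (capitals mark exon 6). It is not a single-site peak, so its middle is not taken as a called site. The window at the stop codon, the taa before the capital, is among those above.
GAPDH, exon 6, low glucose: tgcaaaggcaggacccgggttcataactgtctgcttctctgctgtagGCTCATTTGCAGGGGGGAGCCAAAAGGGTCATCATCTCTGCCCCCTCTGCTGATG

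PGK1 had 2 peaks in normal glucose, far apart in the gene and in the mRNA. The peak chrX:78113822-78113922 had its middle in exon 3 of 11 at codon 82 of 417, and the other, which was wider, had it in exon 10 at codon 383 (plus strand). Both reached into introns. Neither peak was annotated to another gene.

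ENO3 had a single entry, in low glucose, and ENO3 RNA and PFN1 RNA cannot be told apart there, since the lists give no strand. It covered chr17:4948325-4948521, 197 nt, the widest of the 18. Its middle lay 2696 nt before the start of the MANE Select mRNA of ENO3, in an intron of longer transcripts, and 2 of 17 ENO3 transcripts had an exon that touched it. All 197 nt lay in exon 1 of PFN1, the gene of the actin-binding protein profilin, which runs on the opposite strand and to which the same peak was annotated. The middle was 107 nt past the start of the PFN1 mRNA, and 70 nt of the peak were PFN1 coding sequence.

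PKM had 2 peaks in normal glucose, and the wider lay over an exon that only some PKM transcripts carry. PKM RNA is spliced with either of a pair of exons of equal length, which gives pyruvate kinase M1 or M2. The peak chr15:72202411-72202582 (minus strand), 172 nt wide, covered 129 nt of exon 9 of the MANE Select mRNA, the exon of the M2 form, and ran 43 nt into the intron after it. That exon, 72202454 to 72202620 and 167 nt long, is held by 3 of 13 coding transcripts in GENCODE, and its alternative, 72203022 to 72203188, by 5, with none holding both. The alternative is 62.9% identical to it in sequence. The peak shared 0 nt with the alternative exon, and 401 nt of the genome lie between both exons. The other peak, chr15:72206700-72206800, had its middle in exon 8 at codon 373 of 531 and lay in an exon of 8 of the 13 coding transcripts. In the mRNA the middles were 147 nt apart. The peak over the M2 exon is printed in the sense of the RNA, with exon bases in capitals. No peak of PKM lay in its 5'UTR.
PKM, exon 9: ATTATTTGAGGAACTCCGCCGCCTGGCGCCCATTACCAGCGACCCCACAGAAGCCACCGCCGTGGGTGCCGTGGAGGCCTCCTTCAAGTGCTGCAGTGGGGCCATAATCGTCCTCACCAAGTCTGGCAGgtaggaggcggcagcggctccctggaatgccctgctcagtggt

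LDHA had 1 peak, in normal glucose, on chr11:18399417-18399517 (plus strand), which crossed the start of exon 3 of 8 by 14 intron bases and had its middle in codon 55 of 332. It had the lowest GC content of the 18, 42.6%. Of its 30-base stretches 63.9% occur more than once in the genome, with a median of 2 copies. It is shown as the single-site peak of the normal glucose set without a G before the middle (capitals mark exon bases).
LDHA, exon 3: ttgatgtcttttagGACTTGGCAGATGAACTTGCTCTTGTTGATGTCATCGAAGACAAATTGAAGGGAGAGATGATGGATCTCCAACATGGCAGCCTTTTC

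TKT was the only enzyme with a peak in all 3 lists, and all of its peaks lay at the 5' end of the gene (minus strand). The galactose peak, chr3:53255959-53256074, 116 nt wide, and the normal glucose peak, chr3:53255974-53256074, ended at the same base upstream, 52 nt before the start of the MANE Select mRNA, and the former covered all of the latter. Their middles lay 8 nt apart, at nt 7 of the mRNA in galactose and 2 nt before its first base in normal glucose. The low glucose peak, chr3:53255869-53255969, lay further in. It overlapped the galactose peak by 11 nt and missed the normal glucose peak by 4 nt. Its middle was 97 nt from that of the galactose peak and fell 23 nt past the first base of the start codon, in codon 8 of 623. The normal glucose middle lay before the start of every coding TKT transcript but within an exon of a retained-intron transcript that starts further upstream, and was counted as outside the exons of coding transcripts. GC content was 80.2% in the galactose and normal glucose peaks and 65.3% in the low glucose peak. The windows around the middles are shown in order along the gene, with the base before the middle in capitals.
TKT, normal glucose: cccgcgcccGgcctcggcagc
TKT, galactose: cggcctcggCagccgcctgtc
TKT, low glucose: acaagcctgAccagcagaagc

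**Figure D4:**
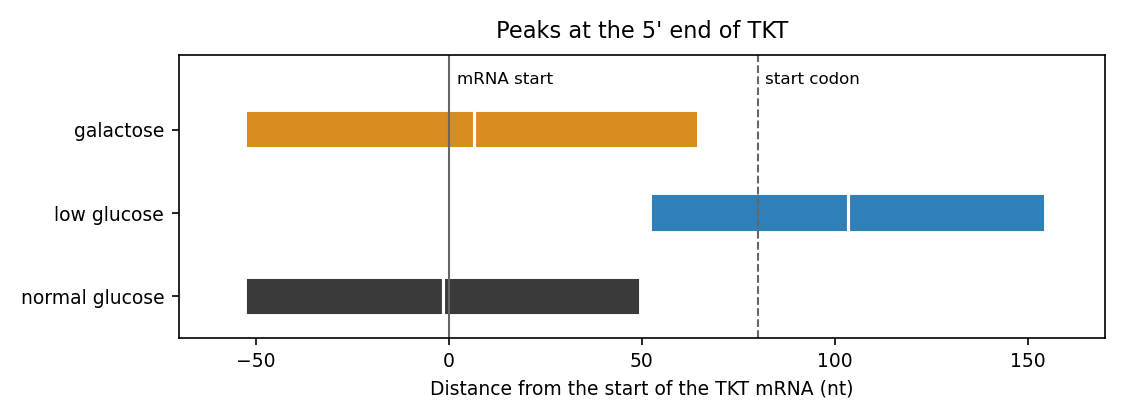
The x axis gives the distance in nt from the start of the TKT mRNA, and each bar is the peak of a list, with a white line at its middle, a solid line at the mRNA start and a dashed line at the start codon. The galactose and normal glucose bars start together, 52 nt before the mRNA, and the low glucose bar spans the start codon.

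Most places with a peak were in a single list, for these genes as for all coding genes. Overlapping peaks merged into 16 regions, of which 15 were found in a single list and 1, at TKT, in all 3. Of 688 merged regions of protein coding genes, 531 were found in a single list (77.2%), 110 in a pair of lists and 47 in all 3. GAPDH and ALDOA had peaks in both glucose lists, but at places that did not overlap.

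In sequence and width the enzymes' peaks were within the range of other coding peaks. Median GC content was 59.2% over the 12 normal glucose peaks, beside 55.1% for all coding peaks in that list, and 65.3% over the 5 low glucose peaks, beside 61.4%. AUUUA, the pentamer of AU-rich elements, was searched on the strand of the gene and was in none of the 18 peaks. Among coding peaks whose genes lie on a single strand, it was in 17 of 254 in normal glucose (6.69%). In low glucose it was in 18 of 310 such peaks (5.81%) and in galactose in 12 of 200 (6%). Of the 18 peaks, 9 were annotated to more than 1 gene. In normal glucose 9 of 12 were single-site, beside 68.1% of coding peaks, and in low glucose 1 of 5, beside 49.4%. More than 50% of 30-base stretches occurred elsewhere in the genome for 2 of the 12 in normal glucose, those of LDHA and of GAPDH, beside 19.9% of coding peaks, and for 0 of 5 in low glucose, beside 9.32%.

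Processed pseudogenes, genomic copies of spliced mRNAs, of 3 of these enzymes also carried peaks, all in normal glucose. Of 48 pseudogene peaks in that list, 7 aligned to the mRNA of a member at 80% identity or more, all in the same sense, while 0 of 5 pseudogene peaks in low glucose and 0 of 2 in galactose did, numbers too small to set a share beside. Of the 7, 5 matched GAPDH, 1 ALDOA (ALDOAP2) and 1 PKM (PKMP1). Projected onto the mRNA, 4 of the 7 overlapped a peak of the member itself. GAPDHP65 on chrX:46439658-46439761 matched nt 1029 to 1132 of the GAPDH mRNA at 94.2% identity and overlapped its normal glucose peak by 97 nt. ENSG00000219951 overlapped the same peak by 35 nt. GAPDHP61 on chr15:64529266-64529366 matched nt 380 to 480 at 92.1% and overlapped the GAPDH peak of the other list, low glucose, by 55 nt. ALDOAP2 overlapped the exon 4 peak of ALDOA by 74 nt at 91.1% identity. GAPDHP63, GAPDHP21 and PKMP1 lay 98, 64 and 218 nt from the nearest peak of their member. A G stood before the middle in 4 of the 5 single-site peaks among the 7. Over all single-site peaks in normal glucose whose genes lie on a single strand, 167 of 266 had it (62.8%). The files do not say how reads that fit both the gene and a copy were assigned, and the part of such reads in these entries was not tested. Windows of a pair of copies are given above the matching stretch of the mRNA (lower case throughout), with the base before the middle in capitals.
PKMP1: caacaccatGcgtgttgttcc
PKM mRNA, nt 1654 to 1674: caacaccatgcgtgttgttcc
GAPDHP61: gagccaaaaGggtcaacatct
GAPDH mRNA, nt 420 to 440: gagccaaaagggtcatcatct
The PKM window is identical in the copy, and that of GAPDH differs by 1 edit.

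**Figure D5:**
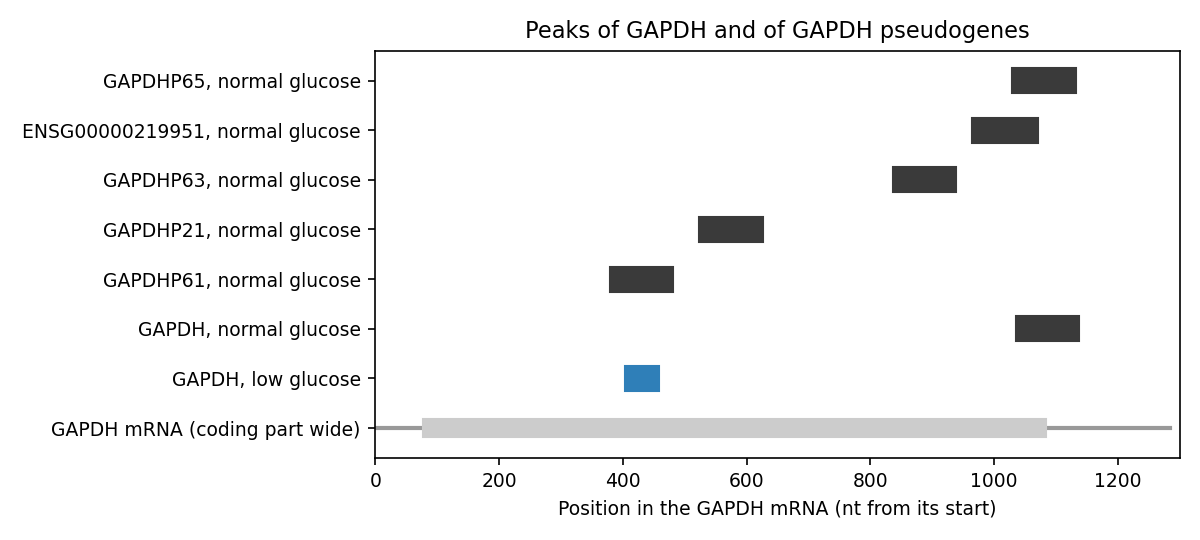
The x axis gives the position in the GAPDH mRNA in nt, with its coding part as a wide grey band, and each bar above it is a peak of GAPDH or of a GAPDH pseudogene, placed by alignment, blue for low glucose and dark for normal glucose. GAPDHP65 and ENSG00000219951 lie over the normal glucose peak of GAPDH at the stop codon, and GAPDHP61 lies over the low glucose peak.

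Beyond the 8 enzymes, PGLS was the only listed gene of these pathways with a peak. The 7 of 33 glycolysis genes with a peak were the enzymes described above, and 26 had none in any list, among them the hexokinases, the phosphofructokinases, TPI1, PGAM1 and ENO1. Of 14 genes of the pentose phosphate pathway, TKT and PGLS (6-phosphogluconolactonase) had a peak in normal glucose and 12 had none in any list. The PGLS peak, chr19:17511741-17511841, had its middle in coding sequence and a C before it, and was also annotated to PGLS-DT. None of 24 genes of glucose and lactate transport and of the control of glycolysis and none of 8 genes of galactose breakdown had a peak in any of the 3 lists. Over the whole series, 560 protein coding genes had a peak in any list, and their share of all annotated coding genes was not computed. Whether any of these gene lists differs from coding genes at large therefore cannot be told from these counts. Without depth or RNA level, an entry missing from a list does not show that GAPDH was not in contact with that mRNA.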

How the data were processed

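CLIP-seq of GAPDH in MOLM-13 cells comprised 6 samples, 2 per medium. The deposited lists give genome positions (hg38) with a gene identifier and symbol. Per the labels and methods, reads were trimmed and aligned (with cutadapt and STAR, named without a version in the submitters' processing notes), crosslink sites were called with PureCLIP, neighbouring sites merged and lone sites extended, and both samples of a medium joined. The threshold and the joining rule decide which places could appear, and depth is unknown. The files do not state the coordinate base. Starts were read as 1-based with both ends included, a choice made on the base before the middle, which had its G at the same place on either strand. The members and gene lists were chosen with earlier results of these data known. All peaks of all 8 members and every listed gene with a peak are named. Strand, exons and MANE Select transcripts came from GENCODE release 44, and sequence from hg38 (pysam 0.24.0). A middle was placed over all coding transcripts, with CDS before 5'UTR, 3'UTR and intron. A peak was called recurrent where over 50% of its stretches of 30 nt were found again elsewhere in hg38 (exact scan, numba 0.67.0). Other peaks were aligned to member mRNAs with edlib 1.3.9 (at least 80% identity). Regions were merged at an overlap of at least 1 nt. Shares carry exact 95% Clopper-Pearson intervals (scipy 1.17.1). The sequences and positions of 2 of the 18 peaks are not reported here. No test between lists was run, since each medium has 1 joined list. The scripts were tested on simulated data.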

Additional observations from a re-analysis of the deposited data

How the results depend on the processing

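Without peaks annotated to more than 1 gene, low glucose kept 2 of 5 peaks and 2 of 4 genes, and normal glucose 6 of 12 peaks and 4 of 7 genes. With an overlap of at least 50% of the shorter peak, 0 regions were in all 3 lists in place of 1. With starts read as 0-based and the middle at the later central base, 3 in place of 8 of the single-site peaks had a G before the middle. The other alternatives, which were joining peaks within 50 nt, leaving out recurrent sequence, middles in exons, MANE Select transcripts alone, any coding base, the middles of all peaks and a gap of at most 50 nt, left each count within 1.5 times its value. No paired analysis was possible because the 2 samples of each condition had been joined into 1 list, and no sample could be left out for the same reason. Depth limits every absence from a list.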
